A study of Mus musculus with 2 samples.

Results

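Antigen presentation was followed through 10 genes that were chosen by symbol from the 32285 in the count table: B2m, H2-K1, H2-D1, Tap1, Tap2, Tapbp, H2-Aa, H2-Ab1, Cd74 and Ciita. Single-cell RNA counts came from late promyelocytes sorted from leukemic bone marrow of mice whose progenitors carry the PLZF/RARA fusion oncogene, so every cell of both libraries was sorted from a PLZF/RARA leukemia. The vehicle library came from mice given corn oil with 10% DMSO, and the retinoic acid library from mice given 0.8 to 1 mg retinoic acid, both by intraperitoneal injection for 7 days. The sort kept cells that were Cd45.2+, C-Kit+, Gr1+, Cd34- and FcγR+, from a cohort of 3 to 5 mice. Strain, age and the number of mice behind each library are not given in the sources used here. Each group held 1 library, so no p-value is given, and every interval below is a 95% interval for counting error only, which leaves out differences between mice, sorts and library preparations.

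Class I molecules carry peptides from inside the cell to CD8 T cells. They consist of a heavy chain, encoded by genes such as H2-K1 and H2-D1, and the invariant light chain beta-2 microglobulin, encoded by B2m. The transporter TAP, made of Tap1 and Tap2, moves peptides into the endoplasmic reticulum, where tapasin (Tapbp) helps to load them. Class II molecules (chains H2-Aa and H2-Ab1, with the invariant chain Cd74) present taken-up peptides to CD4 T cells, mainly in B cells, dendritic cells and macrophages, under the master regulator Ciita.

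Promoter letters of the class I light chain gene, of 1 heavy chain gene and of 1 class II gene are shown because these genes are known targets of shared factors and are at opposite ends of the levels measured here. All are 200 bases ending just before the start site, read 5′ to 3′ in the direction of the gene, from RefSeq on GRCm38.p6. Capitals mark 4 searched motifs on either strand: AANNGAAA (an interferon regulatory factor type), GGGATTCCC (an NF-kB type), TGACG (as in the X2 box) and ATTGG (the Y box). The H2-Aa stretch holds 2 overlapping TGACG matches, 1 on each strand.
B2m: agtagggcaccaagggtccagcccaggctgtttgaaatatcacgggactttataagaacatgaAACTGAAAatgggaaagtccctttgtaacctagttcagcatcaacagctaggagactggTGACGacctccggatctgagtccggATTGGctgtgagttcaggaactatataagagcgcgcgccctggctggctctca
H2-K1: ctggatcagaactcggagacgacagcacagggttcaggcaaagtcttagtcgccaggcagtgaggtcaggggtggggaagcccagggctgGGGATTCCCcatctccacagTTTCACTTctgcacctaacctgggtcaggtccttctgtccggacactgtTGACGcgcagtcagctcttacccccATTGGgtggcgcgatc
H2-Aa: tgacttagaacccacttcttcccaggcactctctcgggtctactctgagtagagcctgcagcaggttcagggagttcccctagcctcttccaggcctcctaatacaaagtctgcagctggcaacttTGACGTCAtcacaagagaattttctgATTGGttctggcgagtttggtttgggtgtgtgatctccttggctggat
The stretches lie at chr2:122147487-122147686 on the plus strand for B2m, at chr17:34000348-34000547 on the minus strand for H2-K1 and at chr17:34287824-34288023 on the minus strand for H2-Aa.

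Entries were found for 6 members, namely B2m, H2-K1, H2-D1, Tap1, Tapbp and H2-Aa. Tap2, H2-Ab1, Cd74 and Ciita had none. Over 32851 RefSeq promoters, the 250 bases before the start held AANNGAAA in 21.3%, GGGATTCCC in 0.301%, TGACG in 17.8% and ATTGG in 33.8%. In that window H2-K1 and H2-D1 each held all 4, B2m and H2-Aa held all but GGGATTCCC, Tap1 held TGACG and ATTGG, and Tapbp held ATTGG only. GGGATTCCC was searched as an exact word with no free base, so a promoter without it may hold other NF-kB type letters. The 30 bases from the NF-kB type match to the interferon regulatory factor type match differed between the heavy chain genes at 1 base, A17T, counted from the first base shown, with H2-K1 as the reference. They are shown because these heavy chain genes differed in direction across maturation groups of the retinoic acid library. That held once maturation genes were left out of the total, but not on the total of all UMIs. Whether this base bears on expression was not tested.
H2-K1: GGGATTCCCcatctccacagTTTCACTTct
H2-D1: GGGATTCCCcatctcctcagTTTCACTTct
These windows lie at chr17:34000428-34000457 on the minus strand and chr17:35262924-35262953 on the plus strand. The H2-D1 window lies before the RefSeq start at 35263094 but inside the GENCODE span of the gene, which begins at 35262730. The same holds for the searched Tapbp bases, before a RefSeq start at 33919478 in a span that begins at 33915899. A match describes letters only and shows no binding.

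The libraries held 99107718 UMIs (single RNA molecules) from 5476 kept vehicle cells and 110088247 UMIs from 7140 kept retinoic acid cells, with medians of 16749.5 and 14604 UMIs per cell. The 2 libraries shared 11 barcodes. Among defining genes of the labelled cells, Ctsg (6444 and 5979 CPM, vehicle and retinoic acid) and Ms4a3 (849.9 and 2087 CPM) were high in both libraries, whereas Elane stood at 62.8 CPM in vehicle and 7663 CPM with retinoic acid, and Mpo at 311 and 0.4996 CPM. Cd34, absent from the gated cell surface, was at 53.8 CPM in the vehicle library and 0.118 CPM in the retinoic acid library. The mast cell protease gene Cpa3 was at 569.9 and 0.0999 CPM. The cells compared therefore differ in much besides the members, and treatment, mouse and cell make-up cannot be told apart.

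The class I genes were abundant and higher in the retinoic acid library. B2m (chr2:122147686-122153083) was at 569 CPM (counts in every 1000000 UMIs of the library, 564 to 573) in vehicle and 1053 CPM (1047 to 1059) with retinoic acid, a log2 ratio of 0.89 (0.87 to 0.90) or 1.85-fold. H2-K1 (chr17:33996017-34000347) was at 406 CPM (402 to 410) and 521 CPM (517 to 526), a log2 ratio of 0.36 (0.34 to 0.38). H2-D1 (chr17:35262730-35267499) was at 817 CPM (811 to 822) and 1002 CPM (997 to 1008), a log2 ratio of 0.30 (0.28 to 0.31). The light chain gene therefore differed more between the libraries than either heavy chain gene, with intervals that do not overlap. Since 3′ UMIs count molecules, no length scaling was applied. In vehicle cells 0.465 B2m UMIs (0.461 to 0.470) were counted for each UMI of H2-K1 and H2-D1 together, against 0.691 (0.686 to 0.697) with retinoic acid. The ratio of H2-D1 to H2-K1 UMIs stayed close, at 2.01 and 1.92. Together these 3 genes gave 0.179% of all vehicle UMIs and 0.258% of all retinoic acid UMIs.

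Peptide loading members were lower in level and moved apart. Tap1 (chr17:34187553-34197225) was at 22.8 CPM (21.9 to 23.8) in vehicle and 37.2 CPM (36.1 to 38.4) with retinoic acid, a log2 ratio of 0.71 (0.63 to 0.78). Its partner subunit Tap2 (chr17:34203527-34216321) went the other way, with 102 CPM (99.9 to 104) in vehicle against 88.6 CPM (86.8 to 90.4), which makes a log2 ratio of −0.20 (−0.24 to −0.16). Tapbp (chr17:33915899-33929292) was at 73.9 CPM (72.3 to 75.7) and 76.7 CPM (75.02 to 78.3), a log2 ratio of 0.05 (0.01 to 0.10). The intervals of Tap1 and Tap2 lie on opposite sides of 0, and that of Tapbp ends close to it.

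None of the 6 members with at least 20 CPM in either library, which are the 3 class I genes, Tap1, Tap2 and Tapbp, differed 2-fold. Over all 5548 genes at that level, 8.07% did, 3.03% higher and 5.05% lower with retinoic acid. Of the 6 members, 5 were higher by any amount, against 50.5% of all genes. Among the 5548 genes, 3.66% had a higher ratio than B2m, 5.75% than Tap1, 16.96% than H2-K1 and 21.1% than H2-D1.

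Some members overlap other genes in the GENCODE M21 annotation, and whether counting used strand is not given in the sources used here. Gm15821 lies opposite Tap2 over 3148 bases and had 1887 counts in vehicle and 302 with retinoic acid, beside 10092 and 9751 counts of Tap2. Tapbp overlaps Zbtb22 on the same strand over 3422 bases (1226 and 1298 counts). Patl2 lies opposite the whole of B2m but had 25 and 3 counts. Of all 50-base words in the last 400 bases of annotated coding transcripts, 10.2% of those of H2-K1 and 10.11% of those of H2-D1 also occur in transcripts of another gene, against 0% for B2m and Tap2, 3.53% for Tap1 and 4.56% for Tapbp. The strain's own H2 alleles are not given in the sources used here, and how far they match the reference was not tested.

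**Figure D1:**
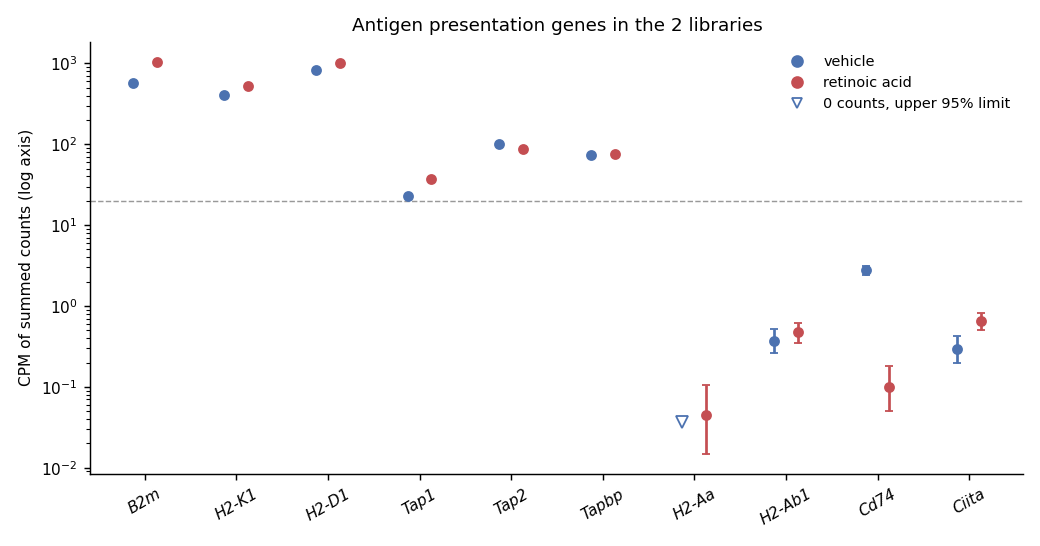
CPM of the 10 genes (log axis) in the vehicle (blue) and retinoic acid (red) library, 1 library each, with bars for the exact 95% Poisson interval of the summed counts. The dashed line is the 20 CPM limit, which 6 genes pass, while the class II genes and Ciita all lie below 3 CPM. The open triangle marks the upper limit for H2-Aa in vehicle, which had 0 counts.

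Class II transcripts were close to missing, and the clearest difference was in Cd74. H2-Aa (chr17:34282744-34287823) had 0 counts in the vehicle library and 5 in the retinoic acid library (0.0454 CPM). The interval of its log2 ratio reaches down to −0.28 and so includes 0. H2-Ab1 (chr17:34257689-34269419) had 37 and 52 counts, 0.373 CPM (0.263 to 0.515) and 0.472 CPM (0.353 to 0.619), and the interval of its log2 ratio (−0.30 to 0.99) includes 0. Cd74, on chromosome 18, had 273 counts in vehicle and 11 with retinoic acid, 2.76 CPM (2.44 to 3.10) and 0.0999 CPM (0.0499 to 0.179). Its log2 ratio was −4.72 (−5.80 to −3.92), or 26.4-fold lower. Ciita (chr16:10480059-10528418) had 29 and 72 counts, 0.293 CPM (0.196 to 0.420) and 0.654 CPM (0.512 to 0.824), a log2 ratio of 1.15 (0.52 to 1.84). Thus Cd74 was lower and its regulator's few counts higher in the same library. Ciita overlaps the more abundant Dexi (1926 and 2296 counts) on the opposite strand over 25888 bases.

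With no limit on level, 3 members (Cd74, Ciita and H2-Aa) passed 2-fold by the ratio with 0.5 counts added, H2-Aa with an interval that includes no change, against 32.3% of all genes with any count. That share is over 18843 genes, whatever their counts. Of the 14561 genes with at least 10 counts over both libraries, 833 were at least 2-fold higher and 2191 at least 2-fold lower with retinoic acid. Among the 5548 genes with at least 20 CPM, 99.64% had a higher ratio than Cd74.

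Shares of cells with a transcript were compared after each cell of at least 5000 UMIs was thinned to 5000 UMIs, in 5282 vehicle and 6659 retinoic acid cells. B2m was seen in 91.4% (90.6 to 92.1) of vehicle and 98.0% (97.6 to 98.3) of retinoic acid cells. H2-K1 was seen in 80.7% (79.6 to 81.8) and 86.8% (85.9 to 87.6), and H2-D1 in 96.4% (95.8 to 96.8) and 97.9% (97.5 to 98.2). All 3 were seen together in 71.7% and 83.8%, and retinoic acid cells were thus 12.1 percentage points (10.6 to 13.6) above vehicle cells. With every UMI kept those shares were 94.6% and 94.2%, and the sign reversed (−0.457 points).

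Tap1 was seen in 10.4% (9.55 to 11.2) of vehicle and 16.98% (16.1 to 17.9) of retinoic acid cells at 5000 UMIs, and in 31.5% and 40.8% without thinning. Tap2 was seen in 39.6% (38.2 to 40.9) and 34.9% (33.8 to 36.1), or 78.0% and 67.5% without thinning. Tapbp was seen in 31.2% (29.9 to 32.5) and 32.4% (31.2 to 33.5), or 68.4% and 65.1% without thinning. The order of libraries was thus the same with and without thinning for Tap1 and Tap2, and turned for Tapbp.

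The class I transcripts were spread over the sorted cells and not held by a few. At 5000 UMIs the median vehicle cell had 3 UMIs of B2m (quartiles 1 to 4), 2 of H2-K1 (1 to 3) and 4 of H2-D1 (2 to 6). The median retinoic acid cell had 5 (3 to 7), 2 (1 to 4) and 5 (3 to 7). The 1% of cells with most B2m held 3.71% of its vehicle UMIs and 2.93% of its retinoic acid UMIs. The variance over cells divided by the mean, which is 1 for pure counting noise, was 1.56 and 1.74 for B2m, 1.38 and 1.58 for H2-K1 and 1.77 and 1.76 for H2-D1. For Tap1, Tap2 and Tapbp it lay between 1.03 and 1.05 in both libraries, at means of 0.112 to 0.509 UMIs per cell. The same relative spread between cells raises this ratio less at a lower mean, so it is not set against that of the class I genes. The whole distribution of B2m sat higher with retinoic acid, and no separate group of negative or very high cells stood out in the plotted counts.

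**Figure D2:**
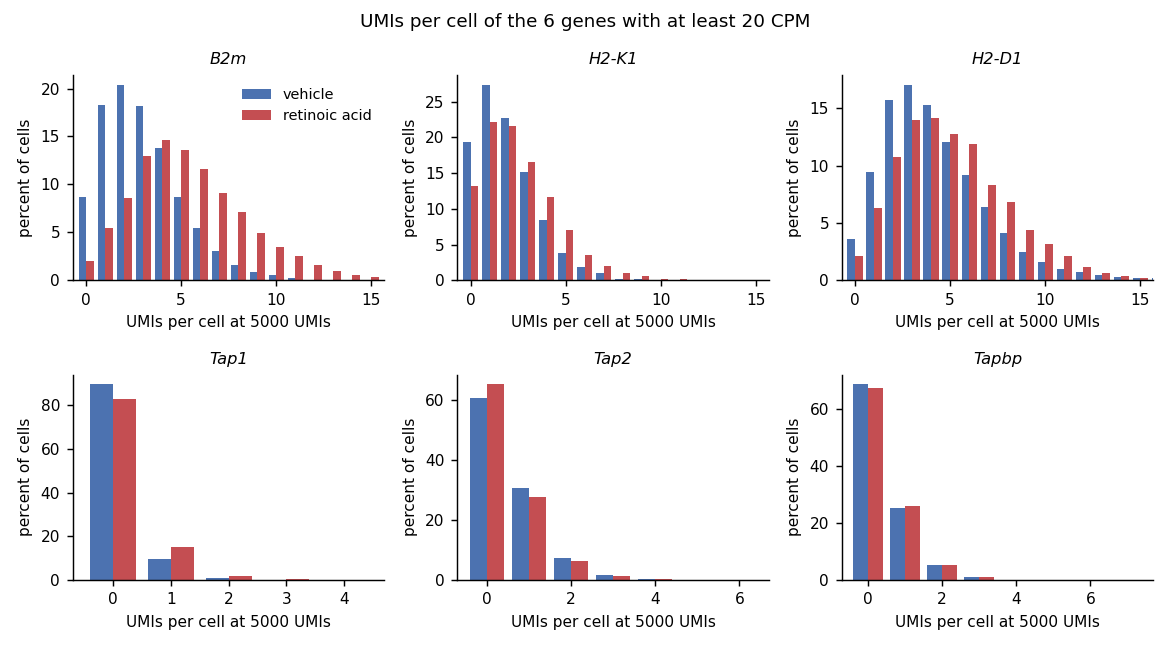
Percent of cells (bars) with each number of UMIs after thinning to 5000 UMIs per cell, for the 6 genes with at least 20 CPM, in vehicle (blue, 5282 cells) and retinoic acid (red, 6659 cells). The x axis ends at 15 UMIs. The B2m median is 3 UMIs in vehicle and 5 with retinoic acid, and Tap1 is at 0 in most cells of both libraries.

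Class II positive cells were rare. Any of H2-Aa, H2-Ab1 and Cd74 was seen at 5000 UMIs in 2.08% (1.72 to 2.50) of the vehicle library and 0.300% (0.184 to 0.464) of the other. Cd74 alone was seen in 1.70% (1.37 to 2.09) and 0.0601% (0.0164 to 0.154), or 4.09% and 0.154% without thinning. H2-Ab1 was seen in 0.379% and 0.225%, Ciita in 0.151% and 0.421%, and H2-Aa in 0 of 5282 vehicle cells (up to 0.0698%) and 1 of 6659 retinoic acid cells. The sort holds no cell type that surely lacks these genes, so genes of other lineages stand beside them at the same depth. The B cell gene Cd79a was seen in 0.928% and 1.07% of cells, the macrophage gene C1qa in 0% and 0.0601%, and the hemoglobin gene Hba-a1 in 1.63% and 0.0300%. In both libraries the H2-Ab1 and Ciita shares lie below those of Cd79a and above those of C1qa. They lie below the share of Hba-a1 in vehicle and above it with retinoic acid. What part stray RNA has in them was not tested.

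Cd74 moved together with Hba-a1. Hba-a1 had 259 counts in vehicle and 11 with retinoic acid, a log2 ratio of −4.65 (−5.73 to −3.85) beside −4.72 for Cd74. Within vehicle, Cd74 was at 5.23 CPM in G1, 2.20 in S and 0.771 in G2M cells, and Hba-a1 at 4.57, 1.41 and 1.16 CPM. In cells with Cpa3 but no Mpo, Cd74 was at 4.19 CPM and Hba-a1 at 4.08 CPM, against 1.21 and 0.784 CPM in cells with Mpo but no Cpa3. Of the 220 vehicle cells with Hba-a1, 6.82% also had Cd74, against 3.98% of the others. Of the 6 erythroid markers, 3 were at 10 counts or more over both libraries, and Hbb-bs had 9 and 2 counts. The 6 summed to 3.01 CPM in vehicle and 0.164 CPM with retinoic acid. What part RNA from other cells has in the Cd74 counts was not tested.

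Cells carrying Cd74 in the vehicle library were few and mostly held 1 UMI. A Cd74 UMI was found in 224 of 5476 cells, 22 cells had 2 or more, the highest had 11, and these 22 cells held 26.0% of its UMIs. Cells with Cd74 had about the same median depth as the others (16435 and 16762 UMIs), and 75.9% of them were in G1, against 52.0% of the rest. At the level of sums, cells with Cd74 had more Ltf, a secondary granule gene (23.7 against 3.93 CPM), more Ly6g (100 against 32.9 CPM) and more of the chemokine genes Ccl5 (29.4 against 8.76 CPM) and Ccl9 (126 against 48.5 CPM). They had less of the cycling gene Mki67 (59.4 against 132 CPM) and of Elane (20.2 against 64.6 CPM). These companion genes were ranked after their values were seen and carry no test. In the retinoic acid library 11 cells had 1 Cd74 UMI each.

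Markers of antigen presenting cells were uneven, with most near 0 and Adgre1, Vcam1 and, with retinoic acid, Ighm well above. Of the 10 dendritic cell markers, Xcr1, Cd209a and Siglech were at 0 in both libraries, and the list summed to 3.24 CPM in vehicle and 0.818 CPM with retinoic acid, of which Flt3 made 2.88 and 0.709 CPM. Of the 9 B cell markers, Pax5 was at 0, Cd79a had 198 and 212 counts, and Ighm had 494 and 4688. The list summed to 7.56 and 45.0 CPM. Of the 10 macrophage and monocyte markers, C1qa had 5 and 8 counts and Csf1r 14 and 9, but Adgre1 (73.7 and 5.15 CPM) and Vcam1 (129 and 292 CPM) were well above them. The list summed to 203 and 297 CPM.

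By the rule of at least 2 markers of 1 list, 1736 vehicle and 555 retinoic acid cells were counted, and they held 30.8% of the vehicle Cd74 UMIs beside 35.4% of all vehicle UMIs. That count rested on Adgre1 and Vcam1. Without these 2 genes, left out after the data were seen, 19 vehicle and 95 retinoic acid cells remained, with 0 of the 273 Cd74 UMIs in vehicle and 1 of 11 with retinoic acid. With at least 3 markers, 16 vehicle cells held 0.733% of the Cd74 UMIs. With those 19 and 95 cells removed, the Cd74 log2 ratio was −4.84, and that of B2m was 0.89.

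The direction of the class I genes was the same in every phase of the cell cycle. Phases were called from S and G2/M genes, none of them a member. B2m was at 657 CPM in G1, 529 in S and 502 in G2M cells of the vehicle library, and at 1155, 1045 and 1024 CPM with retinoic acid. H2-D1 was at 863, 817 and 777 CPM in vehicle, and at 1123, 964 and 974 CPM with retinoic acid. H2-K1 had the opposite order in vehicle, at 352, 422 and 449 CPM, while with retinoic acid it was at 485, 467 and 556 CPM, lowest in S and highest in G2M. In both libraries, G2M cells thus had less B2m and H2-D1 and more H2-K1 than G1 cells. The log2 ratio of G2M to G1 was −0.39 and −0.17 for B2m, −0.15 and −0.21 for H2-D1, and 0.35 and 0.20 for H2-K1, vehicle first, with counting intervals off 0. With neutrophil maturation genes taken out of each total, the H2-K1 value with retinoic acid came down to 0.09 (0.06 to 0.12). Of all genes tested, 32.7% in vehicle and 26.6% with retinoic acid were lower in G2M. Tapbp was lower in G2M in both libraries as well, with log2 ratios of −0.35 and −0.15. None of the 6 members differed 2-fold between these phases, against 7.66% of all genes in vehicle and 6.15% with retinoic acid.

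Of the 6 members with at least 20 CPM, B2m, H2-K1, H2-D1 and Tap1 were higher with retinoic acid in all 3 phases and Tap2 was lower in all 3, against 34.1% and 44.4% of all genes. The log2 ratios in G1, S and G2M cells were 0.81, 0.98 and 1.03 for B2m, 0.46, 0.14 and 0.31 for H2-K1, 0.38, 0.24 and 0.32 for H2-D1, and 0.56, 0.56 and 0.80 for Tap1. Tap2 gave −0.26, −0.20 and −0.13. Tapbp gave −0.01, 0.02 and 0.18. On the total of all UMIs, B2m passed 2-fold in G2M cells only, beside 6.51% of all genes there, and no other member did so in any phase, beside 11.5% of all genes in G1 and 7.13% in S. By any amount, Tap2 and Tapbp were lower in G1 (54.6% of all genes), and Tap2 alone in S (59.5%) and in G2M (53.3%). The G1 interval of Tapbp (−0.09 to 0.07) included 0. With neutrophil maturation genes taken out of each total, B2m gave 0.98, 1.07 and 1.10, so it passed 2-fold in S as well. On that total Tapbp was higher in G1, at 0.16 (0.07 to 0.24). G1 cells made 53.0% of the vehicle cells and 27.7% of the retinoic acid cells. With each phase given its vehicle share in both libraries, added after the data were seen, the ratios were 0.90 for B2m, 0.65 for Tap1 and 0.35 for H2-D1.

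Cells were then ordered within each library by the percent of their UMIs in 23 neutrophil maturation genes, none of them a member, and split into 4 groups of near-equal size. The groups are ranges of a score and not cell types. The median share ran from 0.0600% in the lowest to 0.340% in the highest vehicle group, and from 0.860% to 20.5% with retinoic acid. In vehicle, all 6 members were higher in the highest group than in the lowest, whereas 63.2% of all genes were lower. No member differed 2-fold, against 1.6% of all genes. The log2 ratio was 0.26 (0.23 to 0.30) for B2m, 0.12 (0.08 to 0.16) for H2-K1, 0.38 (0.36 to 0.41) for H2-D1, 0.26 for Tap2, 0.23 for Tapbp and 0.07 (−0.11 to 0.24) for Tap1.

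With retinoic acid, all 6 were lower in the highest group, as were 77.5% of all genes, H2-K1 the most and Tapbp (−0.02, −0.11 to 0.08) within counting error. None passed 2-fold, against 13% of all genes. Going up the 4 groups, H2-K1 was at 611, 559, 483 and 378 CPM. The log2 ratio of its end groups was −0.69 (−0.73 to −0.65), and the share of H2-K1 positive cells at 5000 UMIs went from 92.2% to 78.7%. B2m was at 1070, 1064, 1071 and 994.9 CPM, and H2-D1 at 1035, 1012, 982 and 957 CPM. The maturation genes themselves take a median of 20.5% of the UMIs in the highest group. Once their UMIs were taken out of each total, B2m (1079 to 1262 CPM, log2 ratio 0.23), H2-D1 (1043 to 1214 CPM, 0.22) and Tapbp (0.31) turned to higher. Tap1 came to 0.08 (−0.06 to 0.22) and Tap2 to −0.02 (−0.11 to 0.07), both with intervals that include 0. H2-K1 was still lower, at 616 and 479 CPM with a log2 ratio of −0.36 (−0.40 to −0.32). On that scale 2 of the 6 were lower, against 54.4% of all genes outside the list. The heavy chain genes H2-K1 and H2-D1 thus differed in direction across the maturation groups of the retinoic acid library on this second scale.

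**Figure D3:**
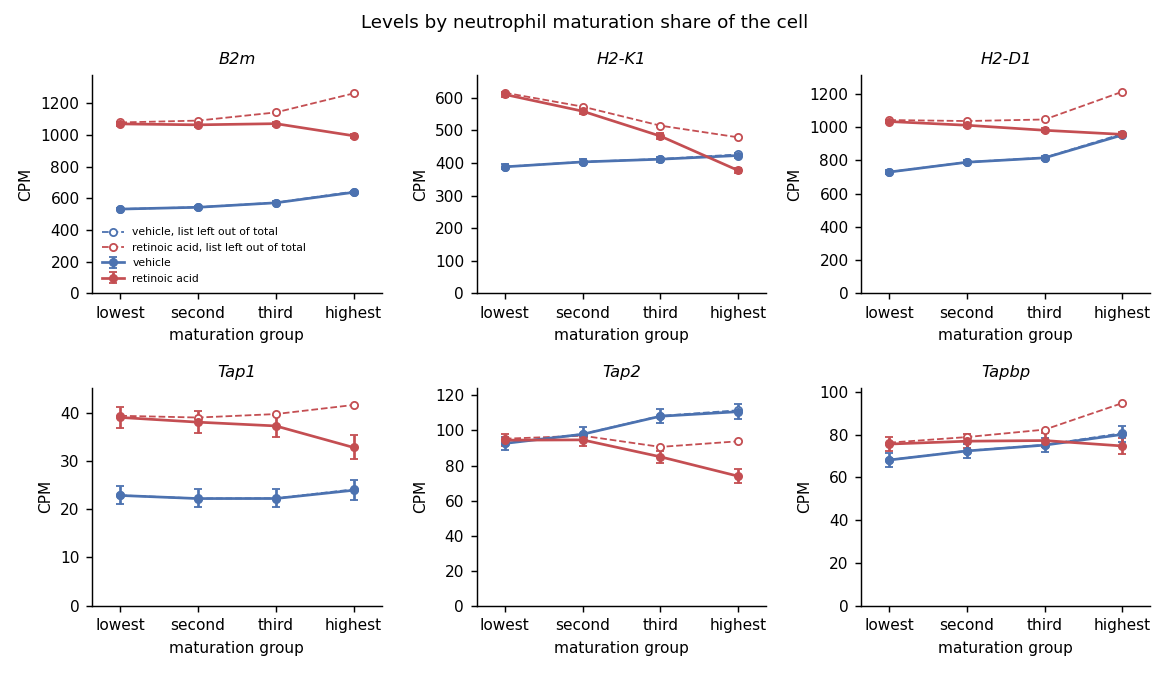
CPM of the 6 genes with at least 20 CPM in 4 groups of cells ordered by neutrophil maturation share within each library, vehicle in blue and retinoic acid in red, with exact 95% Poisson bars. Dashed lines with open points leave the maturation genes out of the total. H2-K1 goes from 611 to 378 CPM with retinoic acid, or from 616 to 479 CPM on the dashed scale, and from 389 to 423 CPM in vehicle.

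The pattern of H2-K1 was present within each phase. Without the maturation genes in each total, H2-K1 in retinoic acid cells went from 637 CPM at the low end to 465 CPM at the high end in G1, from 552 to 427 CPM in S and from 633 to 523 CPM in G2M. Retinoic acid cells in G2M thus had more H2-K1 than those in G1 at the high end but not at the low end. In vehicle it went from 311 to 394 CPM in G1, from 404 to 444 CPM in S and from 435 to 472 CPM in G2M. In G1 cells the libraries were therefore far apart in the lowest groups and closer in the highest. In S cells the highest groups were close, with 427 CPM in retinoic acid cells (1634 counts) against 444 CPM in vehicle cells (921 counts). No interval was computed on this scale, so no order is read from these 2 values. The highest groups were set within each library, with median maturation shares of 20.5% with retinoic acid and 0.340% in vehicle. They are therefore not matched cell states. On the total of all UMIs, H2-K1 in the highest groups was lower with retinoic acid than in vehicle in every phase. It was at 338 against 390 CPM in G1, 344.5 against 441.5 CPM in S and 437 against 469 CPM in G2M. Without the maturation genes in each total, B2m went up in every phase of both libraries, from 1269 to 1348 CPM in G1, 1048 to 1236 CPM in S and 1040 to 1206 CPM in G2M with retinoic acid. H2-D1 was higher at the high end than at the low end in every phase of both libraries, though not step by step. With retinoic acid it was at 1229, 1208, 1176 and 1418 CPM across the 4 groups in G1, at 992.5, 1035, 1025 and 1085 CPM in S and at 1013, 994.3, 1023 and 1120 CPM in G2M. The split by both phase and maturation was added after the group values were seen.

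**Figure D4:**
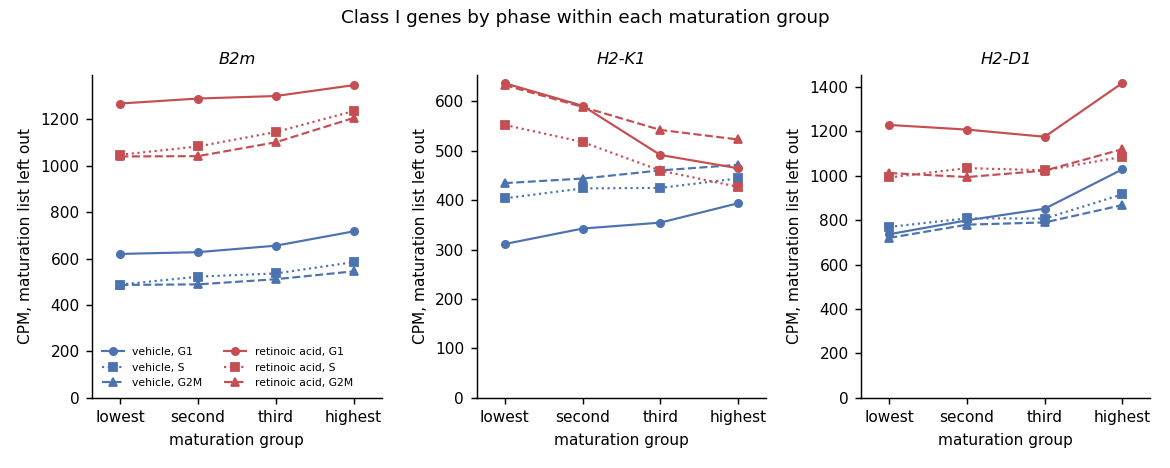
CPM of the 3 class I genes, with the maturation genes left out of the total, in cells of each phase (G1 circles, S squares, G2M triangles) within each maturation group, vehicle in blue and retinoic acid in red. The 3 red H2-K1 lines go down, in G1 from 637 to 465 CPM, while the blue H2-K1 lines and the B2m lines of both libraries go up from the lowest to the highest group.

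The nearest ends of the 2 maturation ranges still differed. The lowest retinoic acid group, with a median share of 0.860%, was set against the highest vehicle group at 0.340%. B2m was at 1070 against 638 CPM (log2 ratio 0.75), H2-K1 at 611 against 423 CPM (0.53), Tap1 at 39.0 against 23.9 CPM (0.70) and H2-D1 at 1035 against 954 CPM (0.12). Tap2 was lower, at 94.5 against 111 CPM (−0.23), and the interval of Tapbp included 0. None of the 6 differed 2-fold, against 7.25% of all genes. Here 35.6% of all genes were lower with retinoic acid by any amount.

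Vehicle cells were also split by Cpa3 and by Mpo, the gene of the primary granule enzyme myeloperoxidase. In 2569 cells with Cpa3 only and 645 with Mpo only, B2m was at 570 and 581 CPM, H2-D1 at 838 and 809 CPM and Tap2 at 102 and 101 CPM. H2-K1 was at 381 CPM in the Cpa3 cells and 459 CPM in the Mpo cells, a log2 ratio of −0.27 (−0.31 to −0.23). Tap1 was at 21.6 and 25.9 CPM (−0.27) and Tapbp at 79.0 and 68.2 CPM (0.21). No member with at least 20 CPM differed 2-fold, against 1.36% of all genes, and 3 of the 6 were lower in the Cpa3 cells by any amount, against 68.9% of all genes. In 529 cells with both genes H2-K1 was at 408 CPM and in 1539 cells with neither at 419 CPM, between the other groups. Median depth was 15808 UMIs in the Cpa3 cells and 20372 UMIs in the Mpo cells.

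Related genes were taken from lists of the pathway, with 67 genes in the table and 27 at 20 CPM or more. Of these 27, 8 differed at least 2-fold, 1 higher and 7 lower with retinoic acid, against 8.07% of all genes. Over all 14561 genes with at least 10 counts in both libraries together, the median log2 ratio was −0.08. Over list genes with as many counts it was −0.09 for other class I genes, 0.08 for peptide loading, 0.41 for the immunoproteasome, −0.34 for other class II genes, −0.76 for class II processing, 0.33 for regulators, 0.35 for interferon gamma signalling and −0.61 for costimulation.

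The immunoproteasome cuts proteins into peptides suited to class I. Its subunit gene Psmb9 was at 62.8 CPM in vehicle and 131 CPM with retinoic acid (2.08-fold), Psmb8 at 179 and 257 CPM, and the activator gene Psme1 at 206 and 273 CPM. Psme2, the other activator chain, was level at 148.5 and 148.0 CPM. Psmb9 is read away from Tap1, and their RefSeq start sites lie 226 bases apart on chromosome 17, at 34187330 and 34187556. In GENCODE they overlap by 212 bases. Both were higher with retinoic acid, while Tap2, further along the same chromosome, was lower.

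Peptide loading chaperones differed among themselves. Calr, the gene of calreticulin, was at 1772 and 816 CPM (2.17-fold lower), Canx (calnexin) at 369 and 376 CPM, and Pdia3, a disulfide isomerase of the loading complex, at 550.2 and 607.5 CPM. The trimming enzyme gene Lnpep was at 49.1 and 38.2 CPM. Of 5 genes at 20 CPM, only Calr differed 2-fold.

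Other class I genes went apart. Cd1d1, which presents lipids, was at 39.9 and 12.5 CPM (3.20-fold lower), Fcgrt, the neonatal Fc receptor heavy chain gene, at 39.5 and 12.3 CPM (3.21-fold lower), and H2-T23 at 36.2 and 33.9 CPM. H2-T22 was at 16.1 and 14.7 CPM and H2-Q7 at 4.23 and 16.0 CPM. Both Cd1d1 and Fcgrt products pair with beta-2 microglobulin, whose own transcript was higher. Named after their values were seen, H2-Q10 was at 3.15 and 9.71 CPM, H2-Q6 at 1.36 and 5.09 CPM and H2-Q4 at 2.26 and 4.77 CPM. Of the 50-base words at the 3′ end, 63.2% of those of H2-T22, 52.0% of H2-Q6, 38.5% of H2-Q4 and 36.2% of H2-T23 occur in another gene, so these counts are uncertain. The share was 0.513% for H2-Q7 and 0.570% for H2-Q10.

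Both class II processing genes that reached 20 CPM were lower with retinoic acid. Ifi30, a lysosomal thiol reductase gene, was at 67.0 and 33.1 CPM (2.02-fold lower), and the cathepsin gene Ctsl at 22.8 and 9.29 CPM (2.45-fold lower). March8, which removes class II from the surface, was at 18.3 and 12.9 CPM, while Ctss (0.0505 and 0.154 CPM) and Lgmn (0.121 and 0.0545 CPM) were near 0. The peptide exchange gene H2-DMb1, at 20.9 and 18.1 CPM, was the only other class II gene to reach 20 CPM. Under that level, H2-DMb2 was at 3.26 and 2.57 CPM, H2-Oa had 719 and 108 counts, and H2-Ob, named after its values were seen, had 14 and 0, with a log2 ratio of at most −1.88 by its interval. Of the costimulation genes, Icosl was at 6.21 and 4.07 CPM, Cd274 at 0.807 and 1.49 CPM and Cd80 at 0.313 and 0.0999 CPM.

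Regulators of these genes differed among themselves. Nfkb1, an NF-kB subunit gene, was at 467 and 116 CPM (4.04-fold lower). Rfxap (52.8 and 64.1 CPM) and Nfyb (48.0 and 60.2 CPM), parts of the complexes at the X and Y boxes, and Irf2 (32.2 and 43.3 CPM) were higher by less than 2-fold. In interferon gamma signalling, Ifngr1 was at 159 and 210 CPM, Jak1 at 66.0 and 94.1 CPM, and Socs1, which inhibits the pathway, at 103 and 36.4 CPM (2.83-fold lower). Ifng itself was at 0 counts in both libraries. Nlrc5, the class I counterpart of Ciita, had 63 and 263 counts, 0.636 CPM and 2.39 CPM (3.74-fold), and was named after its values were seen.

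**Figure D5:**
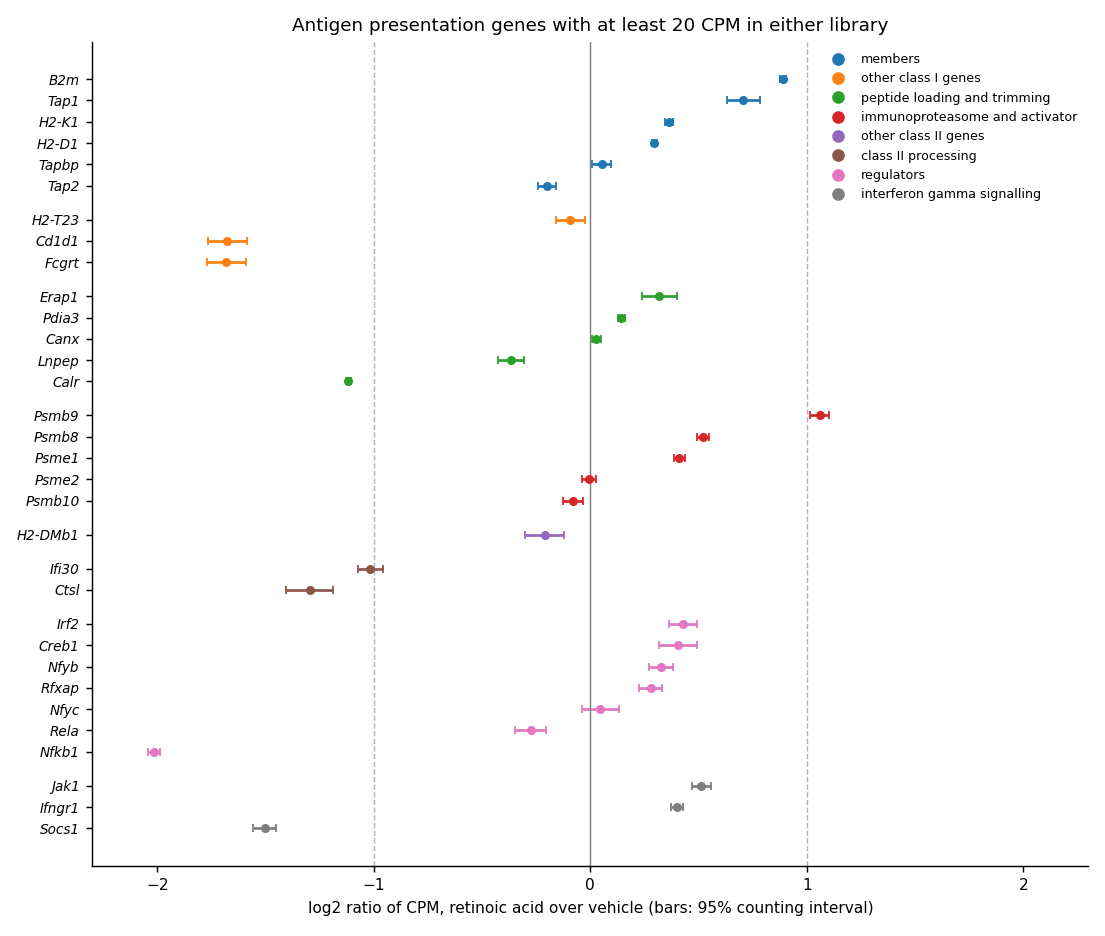
Log2 ratio of CPM, retinoic acid over vehicle, for the genes of the pathway lists that reached 20 CPM in a library, coloured by list, with bars for the 95% counting interval. Dashed lines mark 2-fold either way. Psmb9 lies beyond 2-fold to the right and Cd1d1, Fcgrt, Calr, Ifi30, Ctsl, Nfkb1 and Socs1 to the left.

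The genes whose levels followed each member most closely were sought over 24 sums (2 libraries, 3 phases and 4 maturation groups), each library centred on its own mean. The sums share libraries and totals, and r is given as a description. B2m was most like Ndufa13 (r = 0.95) and Ndufa6 (0.95), of mitochondrial complex I, and the ribosomal gene Fau (0.94). H2-K1 was most like Ccz1 (0.95), the proteasome gene Psmb3 (0.94) and the mitochondrial ribosome gene Mrpl44 (0.94). H2-D1 was most like the selenoprotein gene Selenop (0.85), Aspa (0.79) and Taldo1 (0.78). Tap2 was nearest Acadvl, Npc2 and Zdhhc20 (0.90, 0.90 and 0.88), Tapbp nearest Fcgr2b, Serf2 and Fgl2 (0.89, 0.86 and 0.86), and Tap1 had weaker matches in Sc5d, Stt3b and Ubxn2a (0.76, 0.73 and 0.71). Among the members, B2m followed H2-D1 (0.73), Tapbp (0.79) and less closely Tap2 (0.65), and was near 0 with H2-K1 (−0.04) and Tap1 (0.06).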

How the data were processed

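Per the labels' protocols, libraries were made with 10x Genomics 3′ v2 kits at a target of 6000 cells. The deposited files hold unnormalised UMI counts, 1 value for each gene in each cell. The submitters' processing notes name Cell Ranger 4.0.0 and the builds mm10 and GRCm38.p4. Coordinates come from GENCODE M21 (GRCm38).

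Barcodes under 1000 UMIs, under 500 genes or over 10% mitochondrial UMIs were dropped (310 in vehicle, 276 with retinoic acid). Counts were summed over cells of a library or state. Ratios add 0.5 counts. Sums carry exact Poisson, ratios exact binomial, shares Clopper-Pearson and the difference of shares Newcombe intervals. A sum of 0 allows 3 counts (0.0303 CPM in vehicle, 0.0272 CPM with retinoic acid). For shares and states, cells with at least 5000 UMIs were thinned to 5000 UMIs, which left out 194 and 481 cells. Phases were called with scanpy 1.11.5. Scrublet called 2 and 5 cells, under 0.5%, so it was taken not to have worked, and doublets were kept. Calculations were tested on simulated data.

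The members and lists were chosen with earlier results of these data known. Named were all members, related genes that differed 2-fold at 20 CPM or more, up to 3 further genes of each list with the highest CPM, the 3 genes most like each member and the cell type markers with most counts. A few list genes are not reported here by name or in plots, but stay in the counts and medians of their lists. Alternatives tried were TMM scaling (edgeR 4.0.16), other totals, weights, cell filters, limits, depths and state definitions, and the closing section gives their effect.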

Additional observations from a re-analysis of the deposited data

Results flagged for a closer look

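For 4 genes the comparison of the highest with the lowest maturation group went opposite ways in the libraries, with both counting intervals off 0. The log2 ratio was 0.2611 in vehicle and −0.1046 with retinoic acid for B2m, 0.1235 and −0.6932 for H2-K1, 0.3845 and −0.1122 for H2-D1, and 0.2575 and −0.3532 for Tap2. With 1 library per group, the difference between the libraries was not tested. With the maturation genes left out of the total, the vehicle and retinoic acid values were 0.27 and 0.23 for B2m and 0.39 and 0.22 for H2-D1, so both libraries then went the same way. H2-K1 (0.13 and −0.36) still went opposite ways, and Tap2 came to 0.27 and −0.02, the latter with an interval that includes 0.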

How the results depend on the processing

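No paired analysis was possible because vehicle and retinoic acid were represented by a single library apiece. H2-Aa was left out of these runs, and each of the other 9 members kept its direction between the libraries under every alternative. For H2-Ab1 the main interval includes 0. The log2 ranges were 0.84 to 0.98 for B2m, 0.35 to 0.45 for H2-K1, 0.29 to 0.39 for H2-D1, 0.65 to 0.80 for Tap1, −0.25 to −0.11 for Tap2, 0.04 to 0.14 for Tapbp and −4.96 to −3.99 for Cd74. TMM scaling moved all ratios by 0.08. With no limit on CPM, 3 members passed 2-fold in place of 0, and with limits of 5 or 100 CPM none did. None did, and 5 stayed higher, with all deposited barcodes, with at most 5% mitochondrial UMIs or without the 5% highest doublet scores. Giving every cell equal weight set the low ends for B2m, Tap2 and Tapbp and the high end for Cd74. Phases called on full counts left 5 members with 1 direction in all phases, a maturation list without S100a8 and S100a9 left 5 members lower in the highest group, and states set at 2 UMIs of Cpa3 or Mpo left 0 members past 2-fold. The difference in cells with all 3 class I genes was 17.9 percentage points at 3000 UMIs per cell and −0.457 points without thinning. With the maturation list left out of the total, 2 in place of 6 members were lower in the highest maturation group with retinoic acid, against 54.4% in place of 77.5% of all genes. On that total B2m (0.23), H2-D1 (0.22), Tap1 (0.0806) and Tapbp (0.31) changed sign, Tap1 with an interval that includes 0 (−0.06 to 0.22). The share of vehicle Cd74 UMIs in cells with antigen presenting cell markers was 0.733% with 3 markers and 0% without Adgre1 and Vcam1. Removing cells with at most 0.1% mitochondrial UMIs (144 and 490 cells), shared barcodes or marker cells without those 2 genes, and weighting phases by their vehicle share, were chosen after seeing the data. Depth limits the class II genes, whose counts were 0 to 273 in a library.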

Other observations

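The non-classical class II gene H2-Oa marked cells with eosinophil granule genes in both libraries. In the 575 vehicle cells with an H2-Oa UMI, Prg2 (major basic protein) was at 259 CPM against 19.8 CPM in the other cells, Epx (eosinophil peroxidase) at 234 against 33.7 CPM and Prg3 at 37.3 against 5.84 CPM. In the 106 retinoic acid cells with H2-Oa, Prg2 was at 773 against 7.24 CPM, Epx at 127 against 3.79 CPM and Prg3 at 48.9 against 1.72 CPM. The chemokine gene Ccl6 was also higher in the vehicle cells with H2-Oa (463 against 85.1 CPM). Median depths with and without H2-Oa were 16938 and 16740 UMIs in vehicle and 16131 and 14590 UMIs with retinoic acid. Doublets were not removed, and their part in these cells was not tested.

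Cd1d1 showed the reverse for Prg2, in cells that also had less of several neutrophil maturation genes. In the 2636 vehicle cells with a Cd1d1 UMI, Prg2 was at 15.04 CPM against 82.0 CPM in the others, and Ccl6 at 43.6 against 224 CPM. Ly6g was at 13.9 against 61.4 CPM and Camp at 97.3 against 268 CPM there, while the mitotic gene Cenpf was higher (96.8 against 72.6 CPM). In the 1179 retinoic acid cells with Cd1d1, Prg2 was at 2.25 against 25.1 CPM, Ltf at 24.2 against 126 CPM and Retnlg at 84.3 against 272 CPM. Cells with Cd1d1 were deeper (18486 against 15054 UMIs in vehicle, 17439 against 14037 with retinoic acid). H2-Oa, Cd1d1 and their companion genes were chosen after their values were seen, and no test was made.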
